A study of Drosophila melanogaster with 11 samples.

Results

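The long circular RNAs (circRNAs) of the fly head were taken here as those whose head-to-tail junction spans 2000 nt or more of the dm6 genome, from the start to the end that the deposited table gives, with a named host gene. Such a span was found for 729 of the 1928 circRNAs deposited, and 617 from 363 host genes remained after leaving out 45 without a host, 13 of mbl and 54 on chromosome 4. Span, host and chromosome alone chose them, and no level entered the choice. The 11 libraries came from heads of wild-type CantonS (CS) males, as ribodepleted total RNA. All flies were raised at 25 °C and mated, and the males were separated under CO2. The 4 groups were heads frozen just before the exposure (pre-treatment, 3 libraries) and heads frozen after 10 days at 18 °C (3 libraries), 25 °C (2 libraries) or 29 °C (3 libraries). All heads at 18, 25 and 29 °C were thus from older flies than the pre-treatment heads, so in comparisons of 18 or 29 °C with pre-treatment age and temperature cannot be told apart, and the comparisons among 18, 25 and 29 °C are between flies of the same age in days. The labels name heads as the tissue, while the study's design text also speaks of brains. The labels call the replicates biological, and by the study's methods each was a pool of males from several vials. Whether these vials came from separate rearing bottles is not stated, and p-values measure the spread between these libraries.

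A circRNA forms when the splice donor at the end of an exon joins an acceptor upstream of it, which closes the enclosed exons into a ring without free ends. Rings resist exonucleases and decay slowly, and many are known to build up in the neurons of ageing flies. A long span can hold many exons and the introns between them, and whether those introns are kept in the ring cannot be read from a junction. Levels are given as normalized reads that cross the junction. A junction is a single site, so this level does not grow with the length of the ring. Changes are log2 fold changes fitted by limma to log2(value + 1), and a change was called at a Benjamini-Hochberg adjusted p under 0.05 and a size above 0.5. Depth is taken here as the reads counted to the deposited linear genes and circRNAs, recovered from the normalized values, and not as all reads sequenced. It was 32.1 to 123 M reads per library. In these libraries 3 reads were worth 3.42 to 5.98 normalized reads before treatment and 1.42 to 3.58 after it.

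Genes that mark cell types moved between groups as well. The 5 photoreceptor markers (ninaE, ninaC, trp, norpA and chp) summed to 1969200 to 2089700 normalized reads at 29 °C, against 1430500 to 1457600 at 18 °C and 1414400 to 1444100 before treatment. The 5 glial markers (repo, Gat, Eaat1, nrv2 and moody) summed to 48313 to 49103 at 29 °C, against 73974 to 79913 at 18 °C and 70136 to 82965 before treatment. The sum of the neuronal markers (elav, nSyb, Syt1, brp and fne) was 240800 to 260430 at 29 °C. It overlapped there with 200610 to 241740 at 18 °C and with 249790 to 280720 before treatment. Muscle markers summed to 172030 to 178310 at 29 °C, against 110240 to 127220 at 18 °C and 236530 to 294230 before treatment. Fat body markers (Lsp2, to, Fbp1, Yp1 and Yp2) summed to 19856 to 37077 at 29 °C, against 123350 to 192440 at 18 °C and 52566 to 63019 before treatment. Most of this sum was the single gene to, at 18123 to 34418, 117230 to 189580 and 45248 to 60827 in the same order. Lsp2, Fbp1, Yp1 and Yp2 each overlapped between 29 and 18 °C. At 25 °C the sums were 1517000 and 1557100 for photoreceptors, 55384 and 60492 for glia, 212690 and 247130 for neurons, 141290 and 170040 for muscle, and 53217 and 56421 for fat body. All but the neuronal sums thus lay apart between 29 °C and pre-treatment, and between 29 and 18 °C. Single markers did not all follow their sum. Against pre-treatment ninaE and trp lay higher at 29 °C, while ninaC, norpA, chp and moody overlapped. The muscle marker Act57B was higher at 29 °C (56966 to 62895) than before treatment (47356 to 55643), though the muscle sum was lower. Between 29 and 18 °C moody overlapped, and the muscle marker Act88F was lower at 29 °C, though the muscle sum was higher. Of the neuronal markers, elav, nSyb and fne lay higher at 29 than at 18 °C, while Syt1 and brp overlapped. Against pre-treatment nSyb lay higher at 29 °C, Syt1 and brp lay lower, and elav and fne overlapped. No marker was at 0 in any library, those of photoreceptors and neurons included. In bulk heads, fewer cells of a type and less RNA per cell cannot be told apart, and the part of these shifts in the results below was not tested.

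The long circRNAs lay in long genes and were mostly made of several exons. Their median span was 4626 nt and the longest reached 69612 nt. In 130 the span was over 10000 nt and in 41 it was over 20000 nt. Annotated exon ends marked both sides of the junction in 558 (90.4%), against 599 (89.4%) of the 670 circRNAs of 700 to 1999 nt and 249 (75.7%) of the 329 circRNAs of 50 to 699 nt. Among these 558 the median number of annotated exons inside was 4 and the largest was 37. A single exon made up the whole ring in 15 (2.69%), against 139 (23.2%) of the middle class and 103 (41.4%) of the short class. Exons covered a median of 1473 nt, or 28.3% of the span, against 794 nt (78.7%) in the middle class and 432 nt (88.8%) in the short class.

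The acceptor was that of the second exon of an annotated transcript in 42.7% of them, against 44.7% and 47.4% of the middle and short classes. The introns flanking the ring had medians of 2889 nt upstream and 2083 nt downstream. These lay above the 2637 and 1742 nt of the middle class and below the 3286 and 2811 nt of the short class. The annotated start codon lay inside in 46.8%, against 40.4% and 34.9%, and the stop codon in 11.5%, against 3.84% and 2.41%. The host genes had a median length of 37431 nt, against 29709 nt for hosts of the middle class. These are descriptions of how the classes differ, since a longer window holds more exons, start codons and stop codons by its length alone.

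Most hosts made more than 1 circRNA when shorter ones were counted, but most made a single long one. A single long circRNA came from 244 hosts, 60 hosts made 2, and 59 made 3 or more. At least 1 end was shared with another circRNA of the same host in 404 of the 617, and both ends were shared in 116. In 216 hosts both long and shorter circRNAs were counted (432 long and 405 shorter), while 147 hosts had long ones alone. The most abundant circRNA of the host was a long one in 226 of the 363 hosts (62.3%).

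Long circRNAs were of low level. Their median over the 11 libraries was 6.89 normalized reads, against 9.36 for the middle and 9.69 for the short class. A mean of 20 or more was reached by 89 (14.4%), against 169 (25.2%) and 79 (24.0%), and a mean of 100 or more by 6. Reads were present in every library for 263 of them. Within the long class the median level was 8.11 normalized reads at spans of 2000 to 2999 nt (171 circRNAs), 6.38 at 3000 to 4999 nt (164), 6.93 at 5000 to 9999 nt (152) and 6.69 at 10000 nt or more (130). The highest level in these bins was 172, 204, 102 and 42.7 normalized reads, so the most abundant rings were not those of the longest span. At the edge of the rule, the 11 circRNAs of 2002 to 2046 nt had a median of 9.40 and the 20 of 1951 to 1999 nt a median of 7.82 normalized reads.

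The most abundant long circRNA came from Stacl (2R, 15452857 to 15456815, 4 exons of 490 nt), a relative of the vertebrate STAC adaptors of voltage-gated calcium channels. It was at 192, 69.5 and 277 normalized reads before treatment, at 150.2, 111 and 179 at 18 °C, at 154 and 265 at 25 °C and at 257, 332 and 256 at 29 °C. The 3 libraries at 29 °C lay above those at 18 °C, but the group before treatment spread so widely that it overlapped with both. The circRNA of Pkn (2R, 9265490 to 9267976, 2 exons), a protein kinase gene, was at 239, 199 and 222 at 29 °C, against 171, 70.7 and 119.7 before treatment. It was called higher at 29 °C than before treatment (1.82-fold, log2 fold change 0.95 ± 0.27 SE, limma adjusted p = 0.0387), with no overlap.

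The circRNA of sxc, the O-GlcNAc transferase, was at 167 ± 32.1 at 29 °C and 162 ± 40.7 at 18 °C (SD, n = 3 each), with overlap. That of furry, whose symbol is fry and whose product partners a kinase that keeps dendrites apart, held 7 exons and averaged 157 ± 15.9 normalized reads at 29 °C and 76.3 ± 30.9 before treatment (SD, n = 3 each), 2.06-fold higher with a limma adjusted p = 0.0277. That of Cngl, a cyclic nucleotide-gated channel relative, held 14 exons of 4307 nt and averaged 126 ± 10.2 at 29 °C and 80.6 ± 23.3 before treatment, and was not called. That of dpy, the giant extracellular protein dumpy, held 18 exons of 7968 nt and averaged 73.8 ± 3.42 and 63.3 ± 23.1 in the same groups. Kis, a chromatin remodeller gene, had a circRNA at 77.6 ± 5.60 and 66.8 ± 14.3, and shot, the spectraplakin gene, one at 91.8 ± 18.5 and 60.1 ± 32.0. The circRNAs of CG42402, CG42540 and CG17816 completed the 12 most abundant with that of CG1358, described below.

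**Figure D1:**
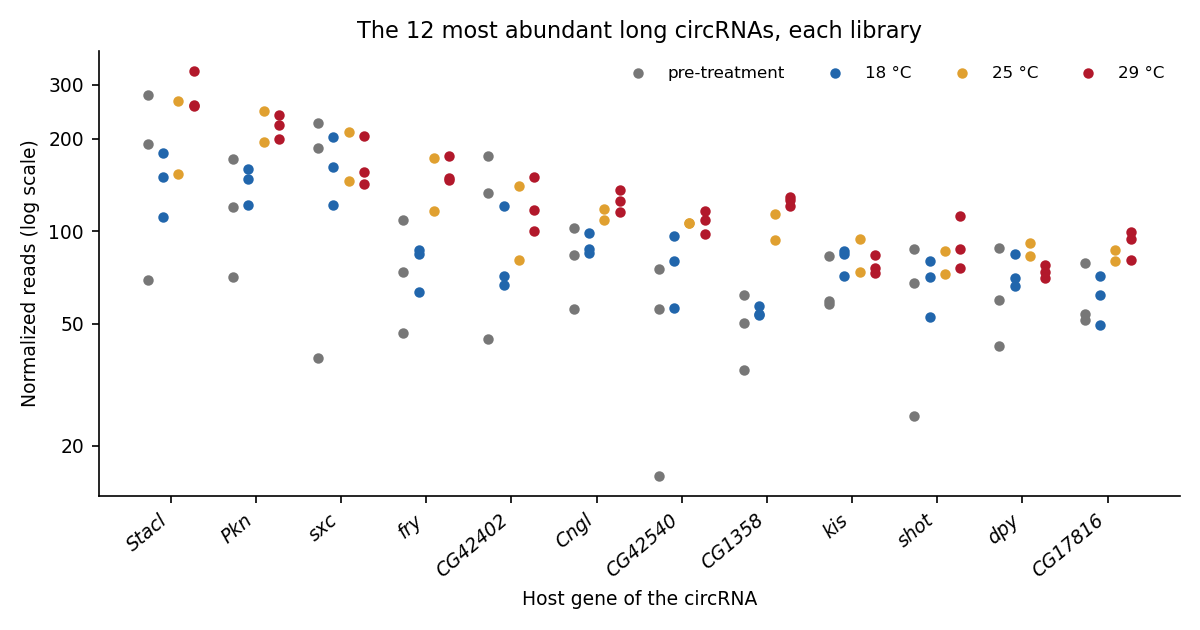
Normalized reads of the 12 most abundant long circRNAs (log scale), by host, with 1 point for each of the 11 libraries and colours for the groups. The circRNA of CG1358 is at 121 to 129.6 in all 3 libraries at 29 °C and at 53.1 to 56.9 in all 3 at 18 °C, while the group means of the circRNA of kis run from 66.8 to 83.8.

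The sum of all 617 long circRNAs was compared next. It was 9799 ± 643 normalized reads at 29 °C and 7646.5 ± 557 at 18 °C (SD, n = 3 each), 1.28 times, and every library at 29 °C (9469, 10540 and 9388) lay above every library at 18 °C (8152, 7049.8 and 7738). The p was 0.1 (exact permutation, two-sided), which 3 against 3 libraries cannot go below. At 25 °C the 2 libraries held 7391.5 and 9113 normalized reads, and before treatment the 3 held 6799, 3015 and 6954. Against pre-treatment the ratio was 1.37 for 18 °C, 1.48 for 25 °C and 1.75 for 29 °C, with no overlap in any of the 3. Exact permutation p was 0.1, 0.2 and 0.1, in each the smallest possible, and 0.2 to 0.24 after Benjamini-Hochberg adjustment over 6 comparisons. Without pre-treatment replicate 2 these ratios were 1.11, 1.20 and 1.43. With log2 depth as a covariate they were 2.09, 1.92 and 2.39, and the ratio of 29 over 18 °C was 1.15. All circRNAs together averaged 26696 normalized reads before treatment, 34010 at 18 °C, 37782 at 25 °C and 40870 at 29 °C. Scaled to this total, the long class was 1.06 times as high at 29 as at 18 °C and 1.12 times as high at 29 °C as before treatment. The sum at 29 °C was 1.19 times that at 25 °C (exact permutation p = 0.2), and the sum at 18 °C was 0.927 times that at 25 °C (exact permutation p = 0.6).

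As a share of all circRNA signal, which sets aside any change common to all circRNAs, the long class made up 24.0% ± 0.20 at 29 °C and 22.6% ± 1.42 at 18 °C (SD, n = 3 each). It made up 21.9% ± 0.576 at 25 °C (n = 2) and 21.3% ± 1.49 before treatment (n = 3). The share at 29 °C was 1.41 percentage points above that at 18 °C, 2.09 above that at 25 °C and 2.65 above pre-treatment. The libraries at 29 °C lay above those of each other group. Exact permutation p was 0.1, 0.2 and 0.1, the smallest possible in each, and 0.3, 0.4 and 0.3 after adjustment over 6 comparisons. Without 18 °C replicate 3 the first of these differences was 0.61 points. When log2 depth was added as a covariate it was 2.18 points, and the difference from pre-treatment was 0.97 points.

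The same comparison was made within the 216 hosts that also made shorter circRNAs. Long circRNAs held 38.1% ± 0.474 of the circRNA signal of these hosts at 29 °C and 35.2% ± 2.06 at 18 °C (SD, n = 3 each). They held 34.4% ± 1.76 at 25 °C (n = 2) and 33.0% ± 2.04 before treatment (n = 3). The lowest library at 29 °C (37.6%) lay above the highest at 18 °C (36.9%), 25 °C (35.6%) and pre-treatment (34.9%). Exact permutation p was 0.1 against 18 °C and pre-treatment and 0.2 against 25 °C, each the smallest possible, and 0.3 to 0.4 after adjustment over 6 comparisons.

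**Figure D2:**
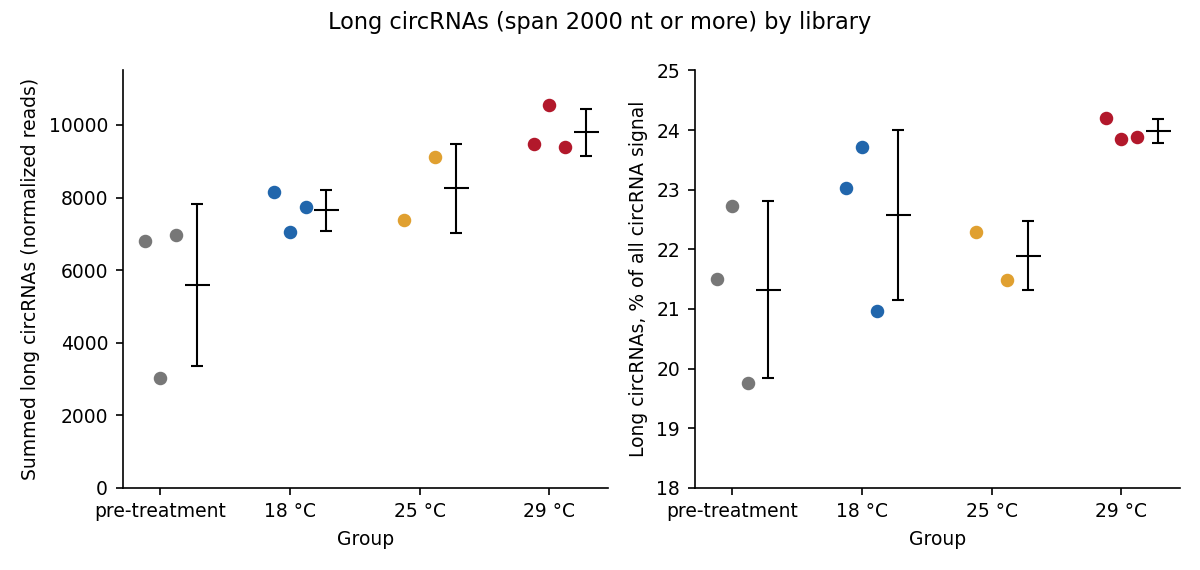
Sum of the 617 long circRNAs in normalized reads (left) and their share of all circRNA signal in percent (right, axis from 18 to 25%), with 1 point per library and the group mean with its SD beside the points. All 3 libraries at 29 °C are above all other libraries in both panels, and pre-treatment replicate 2 has the lowest sum at 3015.

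Linear rows of the hosts were summed in the same way for the 362 hosts that have one. At 29 °C this sum was 0.986 times that at 18 °C, with overlap, and 0.940 times that before treatment, with every library at 29 °C below (exact permutation p = 0.1, the smallest possible). Long circRNA signal was 0.0657% of the linear signal of its hosts before treatment, 0.0938% at 18 °C, 0.104% at 25 °C and 0.122% at 29 °C. Per circRNA, the median share of the host was 0.0408%, against 0.0825% in the middle class and 0.0712% in the short class. The junction is 1 site and the linear row counts reads along the whole transcript, so these percentages fall with transcript length and rank hosts only roughly.

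The highest shares of the host row were reached by 6 circRNAs, whose host rows averaged 509 to 8166 normalized reads. That of beat-Vb (3R, 12918444 to 12931784), of the beaten path family of axon guidance proteins, was at 3.30% of its host row. That of CG1504 was at 2.56%, that of CG34377 at 2.53% and that of TrissinR, the receptor of the neuropeptide trissin, at 2.09%. The circRNA of arc (a), a PDZ domain protein gene, was at 1.61% and that of CG42402 at 1.38%. With that of sxc (1.09%), over 1% was reached by 7 long circRNAs, against 30 of the middle and 18 of the short class. When the host row was divided by its exonic length, the highest values were 0.140 junction reads per read and kilobase of the host for CG34377, 0.117 for CG1504 and 0.112 for Stacl, against a median of 0.00345 over the 616 circRNAs with a host row.

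Flies at 29 °C were then compared with flies at 18 °C, of the same age. Of the 596 long circRNAs that could be tested 7 were higher and 2 lower (1.17% and 0.336%), against 0.962% higher and 0.509% lower of all 1767 circRNAs tested. These shares were near each other. An unadjusted p under 0.05 was reached by 112. The median log2 fold change was 0.37 for long circRNAs and 0.18 for all circRNAs, and 66.3% of long circRNAs had a positive one, against 59.8% of all. In 186 (31.2%) all libraries at 29 °C lay above all at 18 °C and in 57 (9.56%) below, against 28.1% and 14.3% of all circRNAs. By class, the median was 0.37 for the long, 0.18 for the middle and -0.15 for the short circRNAs. Leaving out any library at 18 or 29 °C left 0 calls, leaving out either at 25 °C left 5, and leaving out pre-treatment replicate 1, 2 or 3 gave 19, 32 and 21. On the recovered reads edgeR called 12 higher and 3 lower, and DESeq2 31 higher and 9 lower. With each library scaled to its circRNA total, limma called 4 higher and 4 lower.

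The ring of Ank2, a neuronal ankyrin that ties membrane proteins to the spectrin skeleton, consisted of a single exon of 5132 nt (3L, 7656375 to 7661506). It was at 80.7, 80.6 and 74.4 normalized reads at 29 °C, against 18.5, 17.1 and 13.1 at 18 °C. The 25 °C libraries, at 42.1 and 51.0, lay between, and those before treatment, at 18.9, 9.12 and 21.9, overlapped with 18 °C. The log2 fold change of 29 over 18 °C was 2.22 ± 0.32 (SE, limma adjusted p = 0.0279). The linear row of Ank2 changed by 0.19, which was not called.

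The ring of CG1358 (2R, 7602432 to 7606244, 4 exons of 741 nt) was at 121, 129.6 and 126 normalized reads at 29 °C, against 56.9, 53.1 and 53.7 at 18 °C, 2.30-fold higher (limma adjusted p = 0.0348). RefSeq lists CG1358 as a synonym of HisT, and the linear row of that name went the other way, with a log2 fold change of -0.58 (limma adjusted p = 0.0032). The ratio of ring to host rose by 1.76 ± 0.35 on the log2 scale (SE, limma adjusted p = 0.0191). The ring of Meltrin (3R, 14668866 to 14671803, 5 exons), a membrane metalloprotease gene of the ADAM family, was at 22.1, 24.0 and 32.3 at 29 °C, against 6.86, 5.69 and 7.16 at 18 °C, 3.98-fold higher (limma adjusted p = 0.0416). Before treatment it was at 28.3, 14.8 and 12.0, so the 18 °C libraries lay below all others.

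The single called fall above 10 normalized reads was that of Bsg (basigin, an immunoglobulin-domain membrane protein, 2L, 8105692 to 8107880). Its ring was at 19.5, 21.8 and 22.6 normalized reads at 29 °C, against 80.3, 78.7 and 115 at 18 °C. It was at 42.1 and 37.2 at 25 °C and at 39.3, 14.8 and 29.9 before treatment, and the 18 °C libraries stood above all others. The log2 fold change was -2.03 ± 0.33 (SE, limma adjusted p = 0.0315) with a host change of -0.05. The 4 called circRNAs below 10 normalized reads, named outside the rule because of their small number, came from brp, Lar, CG42795 and GluClalpha. The brp ring (2R, 9505127 to 9509170), from the gene of the active zone scaffold Bruchpilot, was at 22.9, 24.0 and 15.8 at 29 °C, against 0, 1.42 and 0 at 18 °C. Lar, a receptor phosphatase gene of axon guidance, had a ring at 4.25, 5.44 and 4.51 at 29 °C, against 0 in all 3 libraries at 18 °C. CG42795 had one at 5.94, 4.36 and 6.01 against 0 in all 3. A circRNA was tested if every library of some group was above 3. The rings of Lar and CG42795 entered through 29 °C alone, so their calls carry no weight beyond these values. Without this filter 7 long circRNAs were again called higher and 2 lower. The ring of GluClalpha, a glutamate-gated chloride channel gene, was at 2.55, 0 and 0 at 29 °C, against 7.55, 9.96 and 11.9 at 18 °C.

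Rings of a single host could differ from each other. A ring of Dscam2, an immunoglobulin-family receptor by which neurons recognise cells of their own type, covered 6 exons (3L, 7179723 to 7183955) and was at 39.9, 30.5 and 26.3 at 29 °C, against 9.60, 6.17 and 9.55 at 18 °C (3.82-fold higher, limma adjusted p = 0.0315). Another Dscam2 ring of 10 exons (3L, 7163752 to 7168289) was at 11, 14.2 and 21.0 at 29 °C, against 32.9, 25.1 and 22.7 at 18 °C, with no overlap but without a call. Their log2 ratio within a library was 1.04 at 29 °C and -1.57 at 18 °C, a difference of 2.61. The libraries did not overlap, and the exact permutation p was 0.1, the smallest possible. The brp ring above can be set beside the more abundant brp ring (2R, 9507863 to 9511199), which was at 68.8, 105 and 68.4 at 29 °C and 60.4, 40.8 and 82.3 at 18 °C. No ratio is given for them, since the first had reads in a single library at 18 °C, at the value of 3 reads. These pairs, and one of slo below, were chosen after their values were seen, and over the 9 comparisons made, those of brp included, the adjusted p was at least 0.18.

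**Figure D3:**
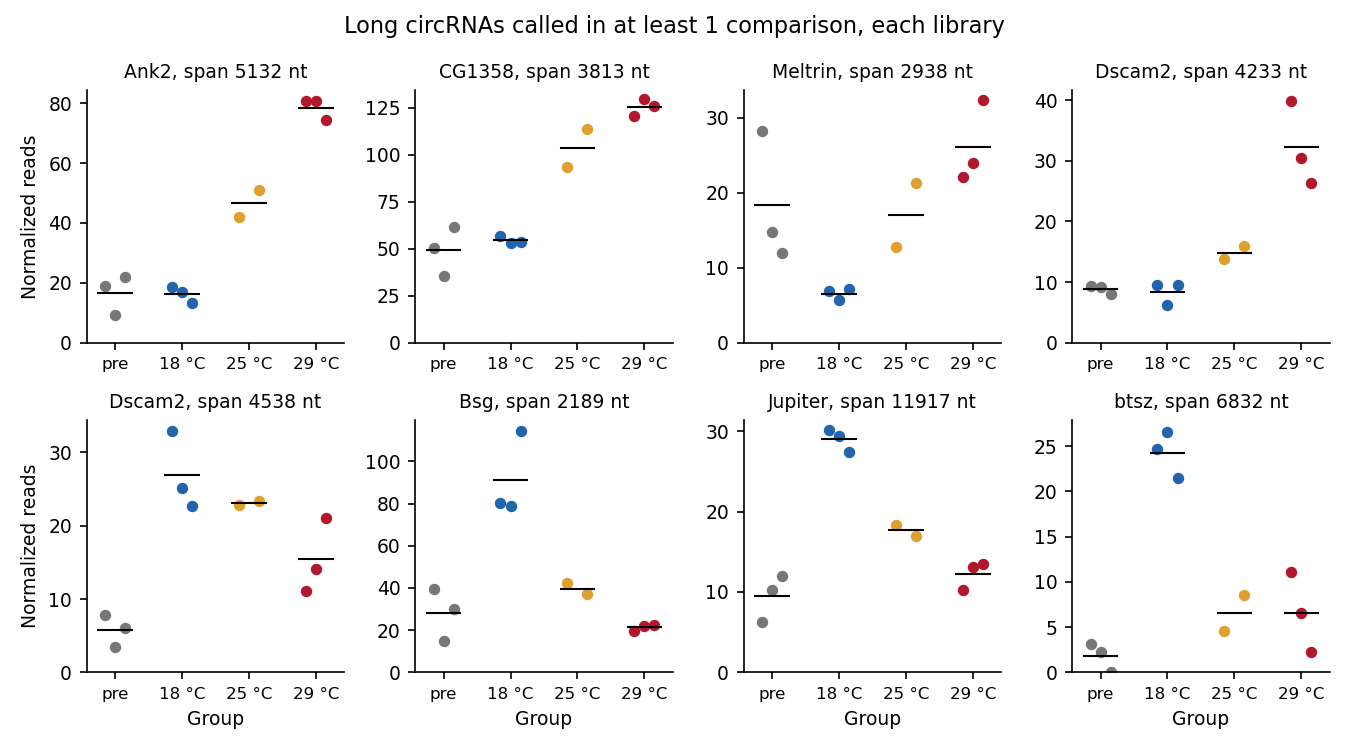
Normalized reads of 8 long circRNAs called in at least 1 comparison, with 1 point per library, black bars at group means, groups from pre-treatment to 29 °C, and linear axes from 0. The rings of Ank2 and CG1358 are highest at 29 °C with 25 °C between 29 and 18 °C, and the Dscam2 ring with a span of 4538 nt, Bsg, Jupiter and btsz have their highest mean at 18 °C.

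Against 25 °C no long circRNA was called in either direction, by limma, at 29 °C (0% of all circRNAs higher and 0% lower) or at 18 °C (0% and 0%). An unadjusted p under 0.05 was reached by 41 and 34. At 29 against 25 °C edgeR and DESeq2 also called 0, and at 18 against 25 °C edgeR called 0 and DESeq2 2. The median log2 fold change was 0.33 at 29 against 25 °C (0.18 for all circRNAs) and -0.04 at 18 against 25 °C (-0.02 for all). Among rings with a mean of 10 or more, the smallest p at 29 against 25 °C was that of mtgo, whose ring is a single exon of 2066 nt, at 69.6, 81.7 and 74.4 at 29 °C and 39.4 and 45.7 at 25 °C. Values of Calx, the sodium and calcium exchanger gene, were 79.0, 53.4 and 63.9 at 29 °C and 44.9 and 18.1 at 25 °C. The neuroligin gene Nlg4 had a ring at 22.9, 21.8 and 14.3 at 29 °C and at 6.41 and 6.38 at 25 °C. At 18 against 25 °C the smallest p were those of the rings of Ank2 and CG1358, with the values above. The next was that of a ring of the polarity gene scrib (span of 24357 nt, 23 exons), which was at 33.6, 25.6 and 40.6 at 18 °C and 10.1 and 17.0 at 25 °C. Its libraries before treatment, at 26.7, 27.4 and 37.9, also lay above 25 °C. The teneurin gene Ten-a had a ring at 21.3, 12.8 and 21.5 at 18 °C and 1.83 and 10.6 at 25 °C.

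In 35 of the 596 tested long circRNAs (5.87%) the libraries of 18, 25 and 29 °C followed each other upward without overlap, and in 9 (1.51%) downward, against 4.87% and 1.47% of all circRNAs tested. Besides the rings of Ank2 and CG1358 the upward ones included that of bru3, an RNA-binding protein gene of the Bruno family, at 34.0 ± 2.11 at 18 °C (SD, n = 3), 51.1 ± 1.55 at 25 °C (n = 2) and 56.8 ± 4.18 at 29 °C (n = 3). They also included that of l(1)G0196, an inositol pyrophosphate kinase gene, at 16.7 ± 4.03, 34.8 ± 6.46 and 50.3 ± 4.88 in the same order. The ring of Bsg was among the 9 that ran downward.

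Heads after 10 days at 29 °C were next set against heads before treatment, which gave most of the calls. Here 132 of 596 were called higher (22.1%) and 1 lower (0.168%), against 18.4% higher and 0.17% lower of all circRNAs. The share was 17.6% in the middle and 8.95% in the short class. The 132 came from 109 hosts, and 262 of the 596 had an unadjusted p under 0.05. In 262 (44.0%) all libraries at 29 °C lay above all before treatment, against 37.2% of all circRNAs. The median log2 fold change was 1.17, with quartiles of 0.50 and 1.89, against 0.93 for all circRNAs, 0.92 for the middle and 0.50 for the short class. The share called did not grow with span and was 21.8% at 2000 to 2999 nt, 22.6% at 3000 to 4999 nt, 23.3% at 5000 to 9999 nt and 20.8% at 10000 nt or more. In 87 of the 132 at least 1 pre-treatment library was at 0 reads and in 41 all 3 were. These 41 could enter the test only through groups after treatment, where they were higher. In 45 every pre-treatment library had reads, and their median log2 fold change was 1.53. Without the filter on level 130 were called higher and 1 lower. Pre-treatment libraries held reads of 398 to 464 long circRNAs, against 578 to 599 at 29 °C, and as a group they were the shallowest. The lowest, 398, was in pre-treatment replicate 2, the deepest of its group at 52.4 M reads. That library held 12451 circRNA reads, against 21434 in replicate 1 (38.0 M reads) and 18635 in replicate 3 (32.1 M reads). The part of depth in the detection was not tested. The call count was 91 without pre-treatment replicate 2, 210 without pre-treatment replicate 1, and 35 to 43 without a library at 29 °C. With log2 depth as a covariate it was 67, edgeR called 70 and DESeq2 96. With each library scaled to its circRNA total, 43 were higher and 7 lower.

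The largest rises above 10 normalized reads came from hosts of many kinds. The ring of CG32432 (3L, 20852579 to 20860426) was at 28.9, 24.0 and 21.0 at 29 °C, against 0, 6.84 and 0 before treatment. That of stops, a gene named for the slow termination of the light response, was at 25.5, 27.2 and 21.8, against 11, 0 and 0. The ring of Pde8, a cyclic nucleotide phosphodiesterase gene (2R, 23665294 to 23672088, 6 exons), had reads in every library, at 35.7, 27.2 and 31.6 at 29 °C, against 6.29, 2.28 and 5.98 before treatment. It was 6.49-fold higher with a log2 fold change of 2.55 ± 0.40 (SE, limma adjusted p = 0.00473), and its host changed by 0.02. Rings of CG34357, CtBP (a transcriptional corepressor gene), Mbs (the myosin phosphatase targeting subunit), bun (a TSC22-family gene) and Rgk3 (a small GTPase gene) had log2 fold changes of 2.53 to 2.79. Each of these 5 rings had 1 pre-treatment library at 0 reads, and without that library the changes were smaller. They were 1.78 for CG34357, 1.77 for CtBP and 1.55 for Mbs without pre-treatment replicate 3, 1.5 for bun without replicate 1 and 1.5 for Rgk3 without replicate 2. For bun and CtBP the call was lost without pre-treatment replicate 2. The bun call was also lost when any 1 library taken after treatment was left out. It was lost with a pseudocount of 0.5, scaling to the circRNA total, 2 groups alone, a replicate block, log2 depth or edgeR. It held without pre-treatment replicate 1 or 3, without the filter, with circRNAs alone in the fit and by DESeq2. For Mbs and Rgk3 the call was lost when any 1 library at 29 °C was left out. The log2 fold change of 3.49 of stops was 2.89 without pre-treatment replicate 2 or 3. Without replicate 1 for stops (4.69) and replicate 2 for CG32432 (4.67, against 3.68) only pre-treatment libraries at 0 were left, so these values depend on the pseudocount.

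Rings with reads in all libraries rose as well. The ring of axo, the neurexin-related axotactin, was at 38.2, 40.3 and 40.6 at 29 °C, against 9.43, 9.12 and 5.98 before treatment, 4.85-fold higher (limma adjusted p = 0.00433). That of GlcAT-P, a glucuronyltransferase gene, spanned 17346 nt and was at 59.4, 52.3 and 44.4, against 20.4, 14.8 and 12.0, 3.31-fold higher (limma adjusted p = 0.00473). The ring with the third longest span, of the photoreceptor transporter gene lovit (59886 nt, 3L, 25421161 to 25481046), was at 36.5, 43.6 and 21.8, against 15.7, 5.70 and 9.97, 3.25-fold higher (limma adjusted p = 0.0218). The rings of longer span, both of CG17684 with 69612 and 66221 nt, averaged 5.63 ± 0.787 and 5.60 ± 4.11 at 29 °C, and 4.14 ± 3.95 and 1.05 ± 1.81 before treatment (SD, n = 3 each). Neither was called. The ring of CG44153 (2L, 10126001 to 10137559) was at 26.3, 40.3 and 25.6 at 29 °C, against 4.71, 5.70 and 12.0 before treatment, 4.12-fold higher (limma adjusted p = 0.0324). The single fall was that of the CG34377 ring, at 7.64, 4.36 and 9.77 at 29 °C, against 22.0, 16 and 31.9 before treatment (limma adjusted p = 0.049), and its linear row fell by 1.21 on the log2 scale (limma adjusted p = 0.00707).

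The exposures to 25 and 18 °C gave fewer calls. At 25 °C against pre-treatment 19 long circRNAs were higher and 0 lower (3.19%), against 3.4% higher and 0% lower of all circRNAs. Of the 596, 141 had an unadjusted p under 0.05, and edgeR called 0 and DESeq2 19. The median log2 fold change was 0.82, against 0.75 for all. All 3 pre-treatment libraries were at 0 reads in 8 of the 19, which could enter the test only through groups after treatment. The count was 0 without either 25 °C library or with log2 depth as a covariate, 3 to 7 without a library at 18 or 29 °C, 87 without pre-treatment replicate 1 and 30 without replicate 3. Scaled to the circRNA total, 5 were higher and 1 lower. Among rings with reads in every library, that of NaCP60E, a sodium channel-related gene (2R, 24894084 to 24901055), was at 38.4 and 46.8 at 25 °C, against 22.0, 9.12 and 5.98 before treatment (limma adjusted p = 0.0483). The ring of Liprin-gamma, of the liprin family of synaptic scaffolds, was at 13.7 and 16, against 6.29, 4.56 and 3.99 (limma adjusted p = 0.0476).

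At 18 °C against pre-treatment 39 were higher and 0 lower (6.54%), against 7.07% higher and 0% lower of all circRNAs, with 173 at an unadjusted p under 0.05. In 31 of the 39 a pre-treatment library was at 0 reads. All 3 were in 23, which could enter the test only through groups after treatment. On the recovered reads edgeR called 6 and DESeq2 19. The count was 0 to 4 without a library at 18 °C, 22 without 29 °C replicate 2, 120 without pre-treatment replicate 1 and 0 with log2 depth as a covariate. Scaled to the circRNA total, 27 were higher and 6 lower. Several of these rings were at their highest at 18 °C. The ring of Jupiter, a microtubule-associated protein gene (3R, 11592367 to 11604283), was at 30.2, 29.4 and 27.4 at 18 °C, against 6.29, 10.3 and 12.0 before treatment, 3.05-fold higher (limma adjusted p = 0.0176). It was at 18.3 and 17.0 at 25 °C and at 10.2, 13.1 and 13.5 at 29 °C. The ring of btsz, a synaptotagmin-like protein gene (3R, 14823863 to 14830694), was at 24.7, 26.6 and 21.5, against 3.14, 2.28 and 0 (limma adjusted p = 0.0151), and at 2.26 to 11 at 29 °C. Its log2 fold change of 3.40 was 2.77 without pre-treatment replicate 3. That of TrissinR was at 38.4, 43.6 and 39.4, against 26.7, 10.3 and 9.97, 2.59-fold higher (limma adjusted p = 0.0335).

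Of the 596, 146 (24.5%) from 121 hosts were called in at least 1 of the 6 comparisons, against 21.4% of all circRNAs tested. The comparisons with pre-treatment share its 3 libraries, and each is given by its own values. Called higher than before treatment at all 3 temperatures were 14 (2.35%, against 2.32% of all), and 100 were called higher at 29 °C alone of the 3 (16.8%, against 13.1% of all). The direct test of 29 against 18 °C is the comparison above, where 7 were higher and 2 lower.

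The ratio of a ring to the linear row of its host was tested for 595 long circRNAs. At 29 against 18 °C the ratio was higher in 20 and lower in 5, against 2.42% higher and 0.967% lower of all 1654 circRNAs with a host row (long circRNAs 3.36% and 0.840%). At 25 °C against pre-treatment it was higher in 13 and lower in 0 (2.18%), against 2.72% higher and 0% lower of all, with 162 at an unadjusted p under 0.05. At 29 °C against pre-treatment it was higher in 149 and lower in 0 (25.0%), against 18.8% higher and 0% lower of all. The median change of the ratio was 0.39, 0.92 and 1.19 on the log2 scale in these 3 comparisons, close to the medians of the level itself. The first count was 1 to 10 in place of 25 without a library at 18 or 29 °C and 58 without pre-treatment replicate 2. The second was 0 without either 25 °C library, 18 °C replicate 1 or 2, or 29 °C replicate 2 or 3, and it was 5 without 29 °C replicate 1. It was 103, 23 and 37 without pre-treatment replicates 1, 2 and 3. The third was 59 to 71 without a library at 29 °C. Scaled to the circRNA total, 15 were higher and 12 lower in the first, 8 higher and 2 lower in the second, and 71 higher and 6 lower in the third.

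The linear rows of hosts were examined beside all 12676 linear genes tested, of which 5.85% were called higher and 6.93% lower at 29 °C than before treatment, and 5.32% higher and 5.25% lower at 29 than at 18 °C. Of the 109 hosts of rings higher at 29 °C than before treatment 2 had a linear row called higher and 3 called lower, and their median log2 fold change was -0.03, against 2.40 for the rings. All 362 hosts had a median of -0.07, with 5 higher and 19 lower. At 29 against 18 °C 0 of 7 hosts of the higher rings were called higher, by limma, and 1 lower (CG1358). P5CS, which encodes an enzyme of proline synthesis, had a ring at 18.7, 31.6 and 34.6 at 29 °C, against 9.60, 10.9 and 8.35 at 18 °C, which was not called, while its linear row changed by -0.72 (limma adjusted p = 0.0104). Its ratio rose by 2.15 ± 0.48 (SE, limma adjusted p = 0.0307). The ring of Calx was at 79.0, 53.4 and 63.9 at 29 °C, against 20.4, 11.4 and 14 before treatment, with a host change of -0.60 (limma adjusted p = 0.0109) and a rise of the ratio by 2.65 ± 0.47 (SE, limma adjusted p = 0.00309). The ring of Sap47, a synapse-associated protein gene, did not pass the test of level at 29 °C against pre-treatment (75.7 ± 7.15 and 53.1 ± 14.8, SD, n = 3 each), but its host fell by 0.64 and the ratio rose by 1.18 (limma adjusted p = 0.0306).

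**Figure D4:**
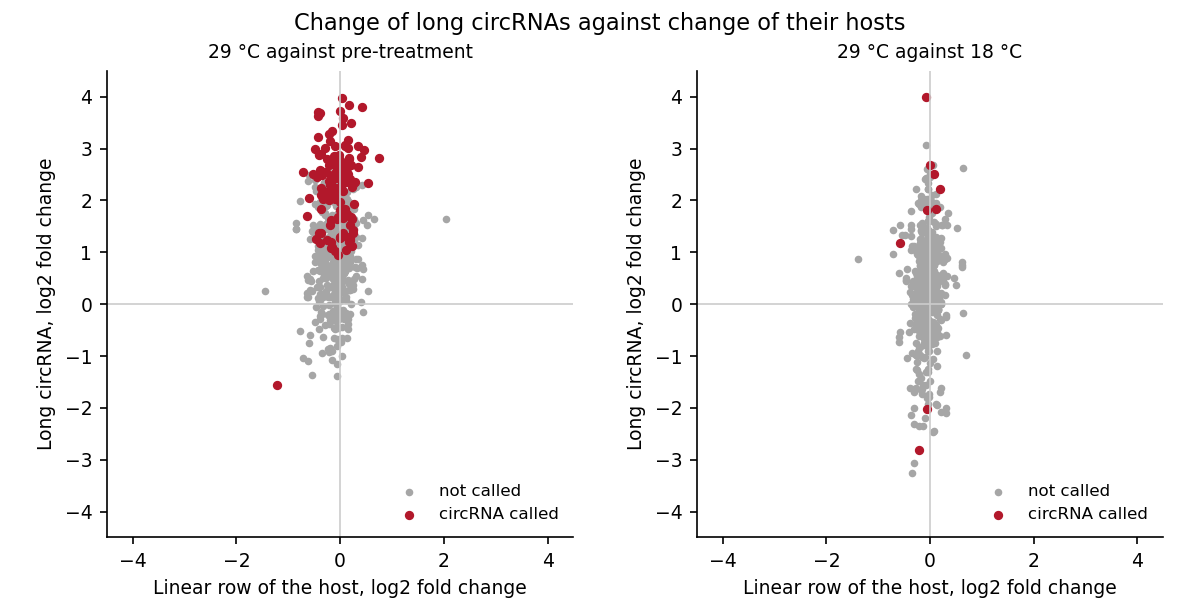
Log2 fold change of each tested long circRNA (vertical) against that of its host's linear row (horizontal), for 29 °C against pre-treatment (left) and 29 °C against 18 °C (right), with called circRNAs in red. The called circRNAs reach 3.97 on the left and 4.0 on the right, values set in part by the pseudocount of 1, and the ring of CG34377 lies at -1.56 on the left with its host at -1.21.

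Hosts were grouped by role in 7 lists of 255 genes, which held 224 of the long circRNAs from 87 hosts. These counts are descriptions beside the 22.1% of all long circRNAs called higher at 29 °C against pre-treatment. Of the voltage-gated and ligand-gated ion channels, which set the excitability of neurons, 17 of 41 genes made 62 long circRNAs. Of the 59 tested, 4 were higher and 0 lower at 29 °C than before treatment, and the median log2 fold change was 0.82. The 4 came from Ca-alpha1T, NaCP60E and slo (2 rings). Of the linear rows of these 41 genes 0 were higher and 2 lower.

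In the list of active zone and synaptic vesicle proteins, which release transmitter, 13 of 35 genes made 33, and 7 of 31 tested were higher (median 0.66), from Syt1, brp, Liprin-gamma, cpx and Sap47. Linear rows were higher for 0 and lower for 3 of 33 genes. In the cell adhesion and axon guidance list 6 of 27 tested were higher (median 1.21), with 2 Dscam2 rings among them, and linear rows were higher for 0 and lower for 4 of 47 genes. Junction and polarity scaffolds had 4 of 27 higher (median 1.07), from pyd, dlg1 and cora. The cytoskeleton list had 7 of 20 higher (median 1.25), among them rings of Ank2, Svil, toc and alpha-Spec, with 1 linear row higher and 3 lower of 35. RNA-binding and splicing factors had 8 of 31 higher (median 1.27), from pum, heph, Rbfox1, bru3 and ps. Cyclic nucleotide and calcium signalling had 3 of 19 higher (median 0.94), from CASK, Pde1c and Pde8. At 29 against 18 °C the lists held 4 higher rings, of brp, Dscam2, Lar and Ank2, and 1 lower, of GluClalpha. None of the 7 lists held a long circRNA called lower at 29 °C than before treatment, and the single fall of the class (CG34377) was in no list.

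The most abundant ring of each list is given with it. For the ion channels it was one of slo (described below) and for the active zone one of Sap47, given above. For the list of cell adhesion and axon guidance it was that of Dpp10. This is a dipeptidyl peptidase-like protein gene, placed in that list and counted among its called rings without being an adhesion gene by name. Its ring was at 92.6, 90.4 and 82.7 at 29 °C, against 61.3, 26.2 and 43.9 before treatment, 2.02-fold higher (limma adjusted p = 0.027). For junctions it was one of dlg1 at 39.8 ± 6.53 and 22.2 ± 12.6 in these groups, for the cytoskeleton that of shot, and for RNA-binding factors that of bru3 (2.05-fold higher, limma adjusted p = 0.0324). For signalling it was that of Epac, a cAMP-activated exchange factor gene, at 73.9, 124 and 66.9 at 29 °C, against 72.3, 9.12 and 119.7 before treatment, with wide overlap.

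The hosts with most long circRNAs were para with 15, slo with 11, ps with 8 and scrib with 7. Para encodes the voltage-gated sodium channel that carries the action potential of fly neurons, and its 15 rings lay nested in each other with spans of 2450 to 33085 nt. Of these, 7 shared an acceptor (X, 16504298, on the minus strand) and held 52.6% of the signal of the 15, and 4 shared the acceptor at 16506439. The most abundant, from 16503990 to 16514184, was at 42.5, 37.0 and 42.8 normalized reads at 29 °C, against 37.7, 18.2 and 19.9 before treatment, and was not called. The sum of the 15 was 181 ± 26.4 at 29 °C and 169 ± 6.76 at 18 °C (SD, n = 3 each), 176 ± 56.9 at 25 °C (n = 2) and 157 ± 39.4 before treatment (n = 3). These groups overlapped, and none of the 15 passed the adjusted p in any comparison. The sum was 0.261% of the para linear row at 29 °C.

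Slo encodes the calcium-activated BK potassium channel. Its 11 rings spanned 4470 to 14690 nt, and 3 that start at the acceptor at 3R, 24687187 held 60.9% of their signal. Of these 3, the ring to 24691933 was at 56.9, 91.5 and 70.7 at 29 °C, against 32.2, 28.5 and 28.6 at 18 °C, with no overlap but without a call. The ring to the next donor, 24692316, was at 28, 30.5 and 33.1 at 29 °C, against 30.9, 25.6 and 35.8 at 18 °C, and 15.7, 9.12 and 14 before treatment. It was called higher at 29 and at 18 °C than before treatment, with a log2 fold change of 1.21 in each (limma adjusted p = 0.0183 and 0.0305). The log2 ratio of these rings, which differ by their donor alone, was 1.72 before treatment, -0.03 at 18 °C and 1.21 at 29 °C. The libraries at 18 °C lay below those at 29 °C and those before treatment (exact permutation p = 0.1 in each of these comparisons, the smallest possible), and the ratio was not compared with 25 °C.

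The RNA-binding protein gene ps (pasilla, the fly relative of mammalian Nova splicing factors) made 8 rings of low level, with means of 1.44 to 8.03 normalized reads. Their sum was 56.7 ± 5.65 at 29 °C and 45.5 ± 4.49 at 18 °C (SD, n = 3 each), 50.2 ± 10.2 at 25 °C (n = 2) and 23.4 ± 13.1 before treatment (n = 3), and 2 of the 8 were called higher at 29 °C than before treatment. Scrib, a gene of epithelial polarity and synapses, made 7 rings with spans of 2302 to 32352 nt, of which 4 shared the acceptor at 3R, 26566361 and held 64.7% of the signal. Their sum was 71.0 ± 15.1 at 29 °C and 99.5 ± 12.1 at 18 °C (SD, n = 3 each), 65.9 ± 36.2 at 25 °C (n = 2) and 83.7 ± 23.9 before treatment (n = 3). In scrib the groups overlapped, and none of the 7 passed the adjusted p.

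**Figure D5:**
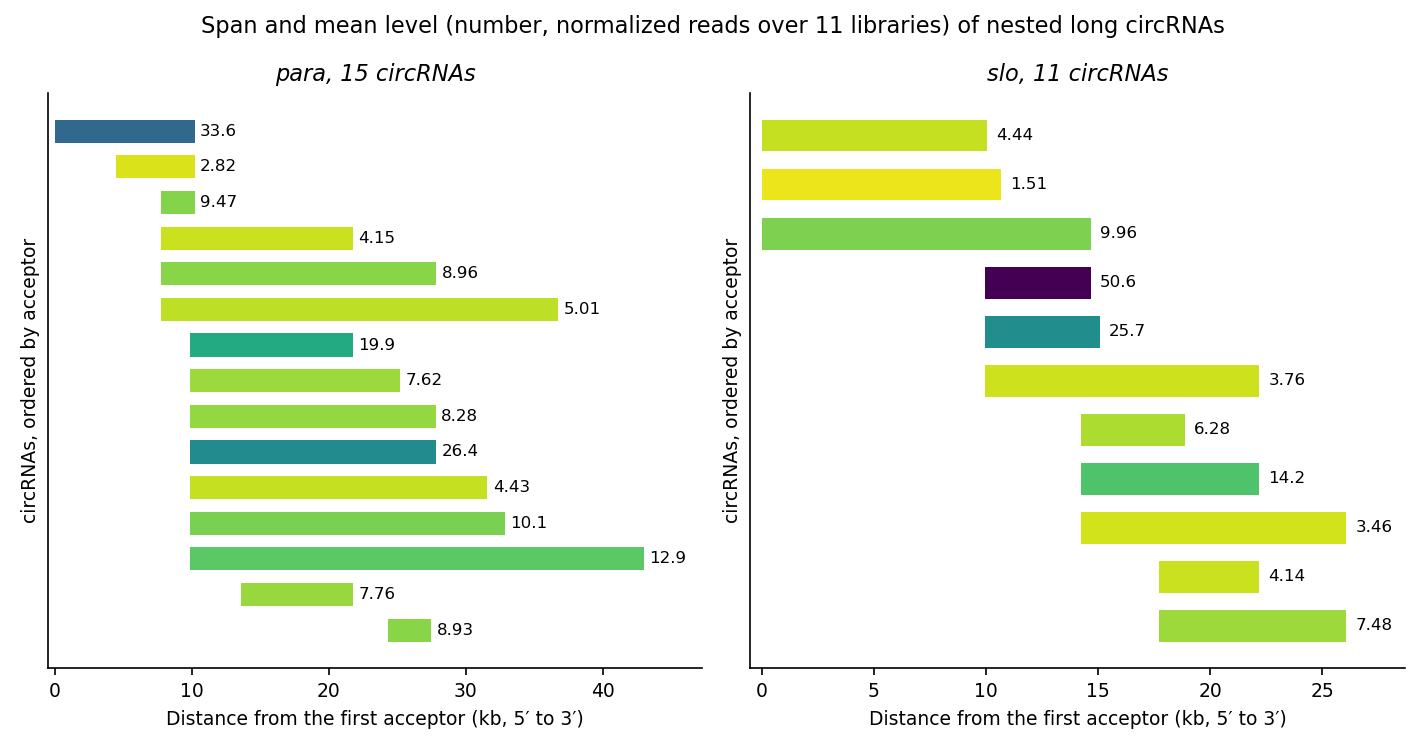
Long circRNAs of para (left, 15) and slo (right, 11) drawn as bars from acceptor to donor, in kb from the first acceptor along the gene, with the mean level over 11 libraries as the number beside each bar and by colour (darker is higher). In para 7 bars share an acceptor, and in slo the ring with a span of 4747 nt stands out at 50.6 normalized reads.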

How the data were processed

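Total RNA of 11 libraries of fly heads was ribodepleted and sequenced. Per the labels and the methods of the study, the authors aligned reads to dm6 with STAR, counted linear genes with featureCounts and head-to-tail junctions with find_circ2, and scaled both together by DESeq2 size factors. The deposited signal values are these normalized reads, and whole reads were recovered from 100% of values within 0.01. No column was left unused (0). Tool versions of the authors are not given in the sources used here.

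Of the circRNAs 1767 were tested (span of 50 nt or more, every library of some group above 3), with 12676 linear genes of mean 10 or more, in 1 limma 3.58.1 fit on log2(value + 1) with all 4 groups, with a mean-variance trend and Benjamini-Hochberg adjustment over circRNAs. This fold change understates changes of low circRNAs. Ratios to hosts used log2(circRNA + 1) minus log2(host + 1). Sums and shares used exact permutation tests (scipy 1.17.1). Recovered reads were also tested with edgeR 4.0.16 and DESeq2 1.42.0 in R 4.3.3. Exons came from Ensembl release 115 on dm6. The linear row of CG1358 was matched through its RefSeq synonym HisT, and 1 host (rad) had none. The value of 3 reads reflects counting only, while each ± is an SD over libraries or the SE of the limma fit.

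The circRNAs named are the 12 most abundant, the largest called changes of level (up to 8) and of ratio (up to 6) in each direction with a mean of 10 or more, the 6 smallest p where fewer than 6 were called, the 6 highest shares of the host, the 3 longest spans, those of the 4 hosts with most, and the most abundant of each list and of hosts the study measured by RT-qPCR. Members and lists were chosen with earlier results of these data known. The methods were tested on simulated data. Alternatives tried were another pseudocount, no filter, scaling to the circRNA total, 2 groups alone, a replicate block, log2 depth as covariate, circRNAs alone, edgeR, DESeq2, stricter members and each library left out.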

Additional observations from a re-analysis of the deposited data

How the results depend on the processing

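The counts of called long circRNAs were the results most open to the processing, and the cause was not tested except where fewer libraries or genes entered. At 29 against 18 °C the count of 9 was 5 with a pseudocount of 0.5, 93 with the 2 groups alone, 24 with circRNAs alone in the fit (chosen after seeing the data), 15 by edgeR and 40 by DESeq2, and 0 to 32 with 1 library left out. At 25 °C against pre-treatment the count of 19 was 6 scaled to the circRNA total, 0 with 2 groups alone, with log2 depth and by edgeR, and 0 to 87 with 1 library left out. At 29 °C against pre-treatment the count of 133 was 50 scaled to the circRNA total, 70 with 2 groups alone, 67 with log2 depth, 70 by edgeR, and 35 to 210 with 1 library left out. At 18 °C against pre-treatment the count of 39 was 0 with 2 groups alone and with log2 depth, 6 by edgeR, 19 by DESeq2, and 0 to 120 with 1 library left out. The counts of 0 became 1 at 29 against 25 °C with circRNAs alone and 2 at 18 against 25 °C by DESeq2, and stayed at 0 with any library left out. For ratios to hosts, the count of 25 at 29 against 18 °C was 11 with a pseudocount of 0.5, 149 with 2 groups alone and 1 to 58 with 1 library left out. The count of 13 at 25 °C against pre-treatment was 23 with a pseudocount of 0.5, 0 with 2 groups alone and with log2 depth, and 0 to 103 with 1 library left out. The count of 149 at 29 °C against pre-treatment was 77 scaled to the circRNA total, 75 with 2 groups alone and 59 to 223 with 1 library left out.

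Deviations from the group mean correlated at -0.29 to 0.29 in same-numbered libraries and at -0.31 to 0.31 in differently numbered ones. In groups of 2 or 3 libraries these deviations are tied to each other. They therefore cannot decide whether the replicate numbers pair the libraries. With the number as a replicate block, the counts at 29 against 18 °C, 25 °C against pre-treatment and 18 °C against pre-treatment were 3, 1 and 19, and the ratio counts at 29 against 18 °C and 25 °C against pre-treatment were 9 and 0.

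With log2 depth as covariate, the share of long circRNAs reversed to -0.80 points at 25 °C against pre-treatment, -1.21 at 18 °C against pre-treatment and -0.41 at 18 against 25 °C. With 1 library left out these were -0.22 to 1.26, 0.46 to 2.04 and 0.11 to 1.48. The summed signal at 18 against 25 °C reversed to 1.03 times scaled to the circRNA total and 1.09 times with log2 depth, and was 0.839 to 1.03 times with 1 library left out. For single named circRNAs 541 values kept their side of the threshold, 297 lost the call, 2 gained it and none reversed. CircRNAs near the value of 3 reads rest on few reads. That value was 3.42 to 5.98 normalized reads before treatment and 1.42 to 3.58 after it. The part of depth in these results was not tested.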

Other observations

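Among the 89 long circRNAs with a mean of 20 or more, 40 (44.9%) were higher in the shallowest than in the deepest library of every group and 2 (2.25%) were lower in every group. Over all 404 circRNAs with such a mean the shares were 49.8% and 3.47%. In 10 of the 89 the ratio was above 1.5 in every group, among them 2 rings of Rim, an active zone gene, and those of brp, Epac and pyd, while 0 of their hosts' linear rows did so. This pattern was noticed in the data and carries no test.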
